A study of Homo sapiens with 6 samples.

Results

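The genes described here are HMGA1, HMGA2, LIN28 (listed on the array by its current name, LIN28A), LIN28B, IGF2BP1, IGF2BP2, IGF2BP3, IGF2 and the noncoding RNA H19. Every non-control probe that the array files assign to one of these 9 genes was taken, which gave 15 of 41000 probes. The genes were selected after the ratios of these same arrays were known, those of the SKOV3 clones above all, so their ratios, and the statement of which probes passed the limits applied to the whole array, are given as a description and support nothing. The study used 2 human ovarian carcinoma lines. In SKOV3, the clones sh-S1 and sh-S2, stably transduced with pLKO.1-puro lentivirus carrying a short hairpin RNA against Hic-5 (gene TGFB1I1, an adhesion adaptor of the paxillin family) and selected with puromycin, were each compared with 1 control clone (Ctrl) carrying a scrambled hairpin. In A2780s, 1 clone stably transfected with pCMV-Hic-5 and selected with neomycin was compared with a clone carrying the empty vector, also called Ctrl. Each pair of RNAs was hybridised together on 2 Agilent 2-colour arrays with the dyes (Cy3 and Cy5) exchanged, which gave 4 arrays for SKOV3 and 2 for A2780s. All cells were grown in RPMI 1640 with serum, and every RNA came from a single clone, so that an effect of the construct and a property of the clone cannot be told apart.

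HMGA1 and HMGA2 are architectural chromatin proteins that bind the minor groove of AT-rich DNA through AT-hooks; HMGA2 is abundant in the embryo and silent in most adult tissue, and is found again in many tumours. LIN28A and LIN28B are RNA-binding proteins that block the maturation of the let-7 microRNAs, and let-7 in turn represses HMGA2, LIN28B and IGF2BP1 through sites in their 3′ untranslated regions. The IGF2BP proteins bind messenger RNAs, IGF2 among them, and govern their stability, transport and translation. IGF2 is a fetal growth factor, and H19 is a noncoding RNA transcribed from the other parental allele of the same imprinted locus. IGF2BP1, IGF2BP3, LIN28B and HMGA2 are often called oncofetal because embryonic tissue and tumours share them.

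Several members had a pair of probes at different places on the transcript, and the results turn on that difference. The probe that starts nearer the 5′ end is called upstream and the other downstream. The upstream probes of HMGA2, LIN28B, IGF2BP1 and IGF2, and the H19 probe, are 60 bases long and read, 5′ to 3′ and with no base in capitals, as follows.
HMGA2 upstream, GRCh37 chr12:66232332-66357033, plus strand: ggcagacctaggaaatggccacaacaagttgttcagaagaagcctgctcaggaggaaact
LIN28B upstream, GRCh37 chr6:105406147-105474217, plus strand: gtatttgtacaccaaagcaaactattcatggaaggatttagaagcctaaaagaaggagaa
IGF2BP1 upstream, GRCh37 chr17:47123382-47123679, plus strand: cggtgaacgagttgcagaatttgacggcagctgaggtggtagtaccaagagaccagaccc
IGF2 upstream, GRCh37 chr11:2154402-2154754, minus strand: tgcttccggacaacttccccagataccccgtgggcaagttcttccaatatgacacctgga
H19, GRCh37 chr11:2016674-2016733, minus strand: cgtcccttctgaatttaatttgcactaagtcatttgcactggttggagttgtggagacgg
The first 4 cover more of the genome than their own length (124702 bases for HMGA2, 68071 for LIN28B, 298 for IGF2BP1 and 353 for IGF2), so each is joined across at least 1 intron. The downstream probe of HMGA2 lies at GRCh37 chr12:66359789-66359848, that of LIN28B at chr6:105527927-105527986 and that of IGF2BP1 at chr17:47132379-47132438, each without a gap. The HMGA2 probes start at bases 1042 and 3857 of the transcript they were designed on, and the IGF2BP1 probes at bases 1859 and 7640.

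Because let-7 links LIN28 with several of these messengers, its sequence is shown with the seed, bases 2 to 8, in capitals. The same seed stood in all 9 human let-7 and miR-98 mature 5p sequences of the RefSeq table, of which let-7a-5p and miR-98-5p are given.
let-7a-5p: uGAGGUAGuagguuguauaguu
miR-98-5p: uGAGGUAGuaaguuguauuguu
The letters complementary to the seed, CTACCTC, were found in 1 of the 15 member probes, the downstream HMGA1 probe, and in 0.344% of all 41000 probes (0.593% with GAGGTAG, the same motif on the other strand, included). The 23 bases around the match, with the match in capitals, are part of that probe.
HMGA1 downstream: ttcacaaaCTACCTCtggacagt
Only the letters of the probes were searched, not whole transcripts, so the match does not show which members carry let-7 sites. The arrays carried no measurement of let-7 itself that was used here.

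Log2 ratios are given throughout as clone over Ctrl, turned to that direction on the dye-exchanged arrays, and the 4 SKOV3 values follow the order sh-S1 in Cy5, sh-S1 in Cy3, sh-S2 in Cy5, sh-S2 in Cy3. The Cy5 channel of the SKOV3 arrays was dim, with a median signal over local background of 9.52 to 25.5 against 373 to 530 in Cy3, whereas both channels of the A2780s arrays lay between 325 and 568. The probe of TGFB1I1 itself gave -0.16, 0.12, -0.11 and 0.28 in SKOV3, a mean of 0.03 ± 0.07 (SD, n = 2 clones; limma adjusted p = 0.855), and 4.05 and 2.60 in A2780s. By this probe the targeted transcript was thus not measurably lower in either RNA with a knockdown label. The study reports that the SKOV3 clones were selected by their Hic-5 mRNA and protein expression. All SKOV3 directions given here rest on the labels. The epithelial ovarian markers moved with the SKOV3 labels as well. Of 10 such markers 7 were tested and 5 fell, KRT7, KRT8, KRT18, KRT19 and PAX8, of which PAX8 changed most (-3.58 ± 0.07, adjusted p = 3.03e-06 by limma). The summed signal of 9 of them was 43000 to 64500 in the 4 Ctrl channels, 6310 to 8360 in sh-S1, 5860 to 9250 in sh-S2 and 2560 to 2740 in A2780s Ctrl. Of 3 genes of the amplicon that marks SKOV3, 1 passed: ERBB2, the amplified receptor, fell by 2.28 ± 0.18 on the log2 scale (adjusted p = 1.89e-05 by limma), while STARD3 stood at -0.74 ± 0.06 and GRB7 at -0.02 ± 0.04. Of 7 fibroblast markers 4 were tested and 1 passed, COL3A1, at 3.65 ± 0.33 (adjusted p = 7.87e-06 by limma). Of 4 blood cell markers and 1 endothelial marker tested, limma called 0 (with an unadjusted p under 0.05, 0 and 1, and with the processed signals 0). Several of these genes had levels in the knockdown-labelled RNAs that lay nearer to A2780s Ctrl than to SKOV3 Ctrl. KRT7 lay nearer to SKOV3 Ctrl (11.19 in SKOV3 Ctrl, 9 in the clones, 6.54 in A2780s Ctrl), and KRT19 had no A2780s level. The mean log2 level of ERBB2 was 13.23 in SKOV3 Ctrl, 10.94 in the clones and 10.45 in A2780s Ctrl, that of PAX8 13.90, 10.32 and 8.86, and that of COL3A1 9.42, 13.07 and 13. The labels assign these RNAs to SKOV3, and whether they came from that line was not tested, nor was the part of these shifts in the member results. In cultures measured in bulk, fewer cells of a kind and less RNA per cell cannot be told apart.

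In SKOV3, HMGA2, IGF2BP1 and IGF2BP3 were several-fold higher in both RNAs labelled as Hic-5 knockdown than in Ctrl, each by 1 probe, whereas the mean ratios of HMGA1, IGF2BP2, IGF2, H19 and LIN28A stayed within 2-fold. How the background was treated changed the size of several of these values: LIN28B was higher on every array by an amount that depended on it, and the upstream HMGA1 probe went beyond 2-fold lower with other treatments. Of the 15 probes 12 had enough signal to enter the fit. LIN28B downstream and IGF2BP1 upstream did so only through the clones, where they were higher. Of the 12, 3 passed an adjusted p of at most 0.05 (limma) together with a 2-fold change, all 3 higher. Over the whole array 2.97% of 24955 probes passed in that direction and 4.16% in the other. Since the genes were picked from these ratios, nothing is read from the comparison of 3 in 12 with that share. The plot of all member ratios shows each array separately.

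**Figure D1:**
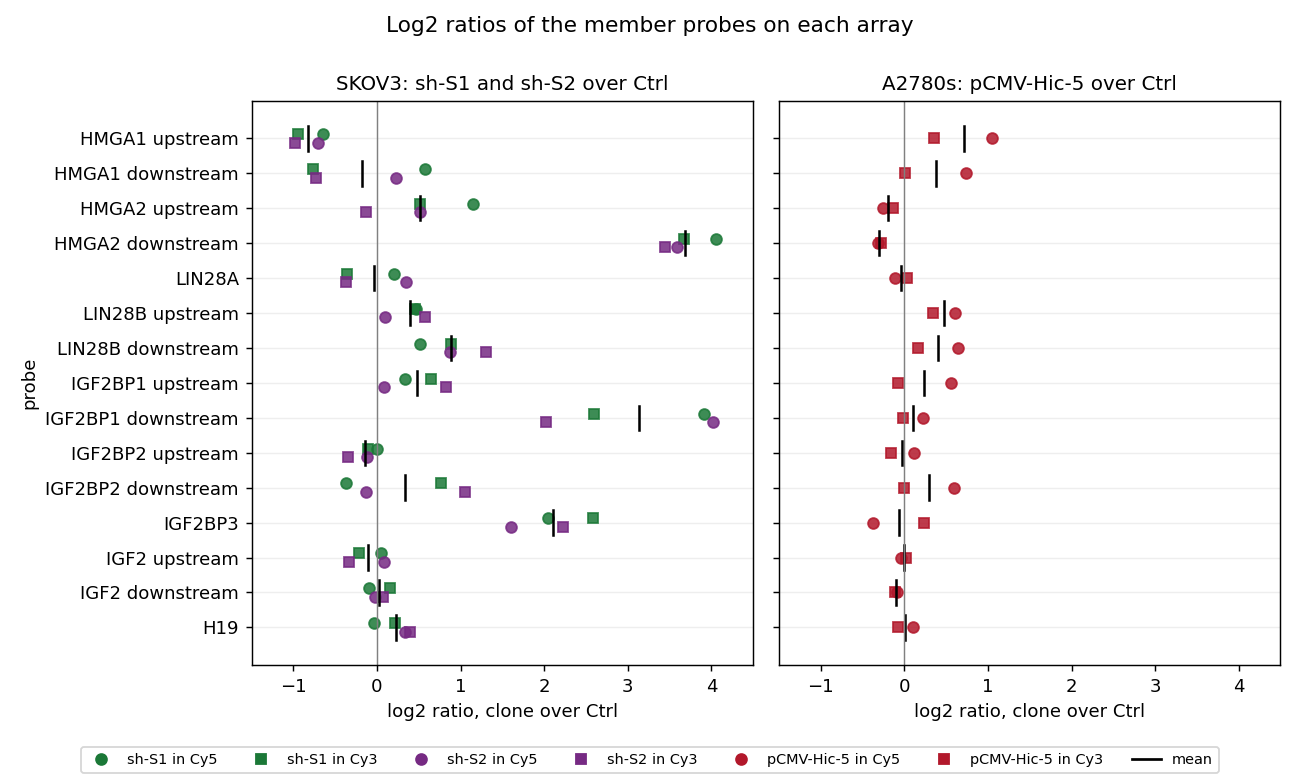
Log2 ratio of clone over Ctrl (x axis) for each of the 15 member probes (y axis), with 1 point per array (circles, clone in Cy5; squares, clone in Cy3) and a bar at the mean. In SKOV3 (left) the downstream HMGA2 and IGF2BP1 probes and the IGF2BP3 probe lie above 1.5 on all 4 arrays, while in A2780s (right) no member probe exceeds 1.05.

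The downstream HMGA2 probe gave log2 ratios of 4.05, 3.67, 3.59 and 3.44, a mean of 3.69 ± 0.25 (SD, n = 2 clones) or 12.9-fold. All 4 arrays were high, and the clones were close to each other in both dye orders. Its normalized log2 level was 10.22 to 10.64 in the 4 Ctrl channels, 14.11 and 14.69 in sh-S1, and 13.80 and 13.81 in sh-S2. The groups did not overlap, and the signal was well above background in every channel. Before any normalization, the Cy3 signal over local background was 3780 and 2550 in Ctrl and 31400 and 34500 in the clones, and the Cy5 signal was 119 and 158 in Ctrl and 1880 and 1260 in the clones. Within a dye, the Ctrl and clone signals come from different arrays and were not scaled to each other.

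The upstream HMGA2 probe gave much smaller values on the same arrays. Its ratios were 1.15, 0.51, 0.52 and -0.13, a mean of 0.51 ± 0.45 or 1.43-fold. With the scanner software's own processed signals they were 1.41, 1.16, 0.75 and 0.61, all positive, with a mean of 0.98, and with the deposited ratios the mean was 1.01 and the probe passed both limits. It was well above background in every channel, at 8.73 to 9.99 in Ctrl, 10.18 and 10.42 in sh-S1, and 9.25 and 9.86 in sh-S2, so that sh-S2 overlapped Ctrl. The downstream ratio exceeded the upstream ratio by 2.90, 3.16, 3.06 and 3.57 on the 4 arrays. The mean gap of 3.17 was 3.05 with the processed signals. In A2780s the gap was -0.06 and -0.14. No annotation of the transcript ends was used, and the cause of the gap was not tested.

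HMGA1, the other AT-hook protein, went the other way by its upstream probe (GRCh37 chr6:34208537-34208596). The ratios were -0.65, -0.94, -0.70 and -0.98, a mean of -0.82 ± 0.03 or 1.76-fold lower, which did not reach 2-fold. The same probe stood at -1.31 without the offset of 50 that was added to both channels, at -1.47 with the processed signals and at -1.44 with the deposited ratios, each beyond 2-fold lower. The downstream HMGA1 probe (GRCh37 chr6:34213595-34213654), whose letters hold the let-7 match, gave 0.57, -0.77, 0.23 and -0.73. Its sign followed the dye and not the clone, and its mean of -0.18 ± 0.11 has no settled direction.

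**Figure D2:**
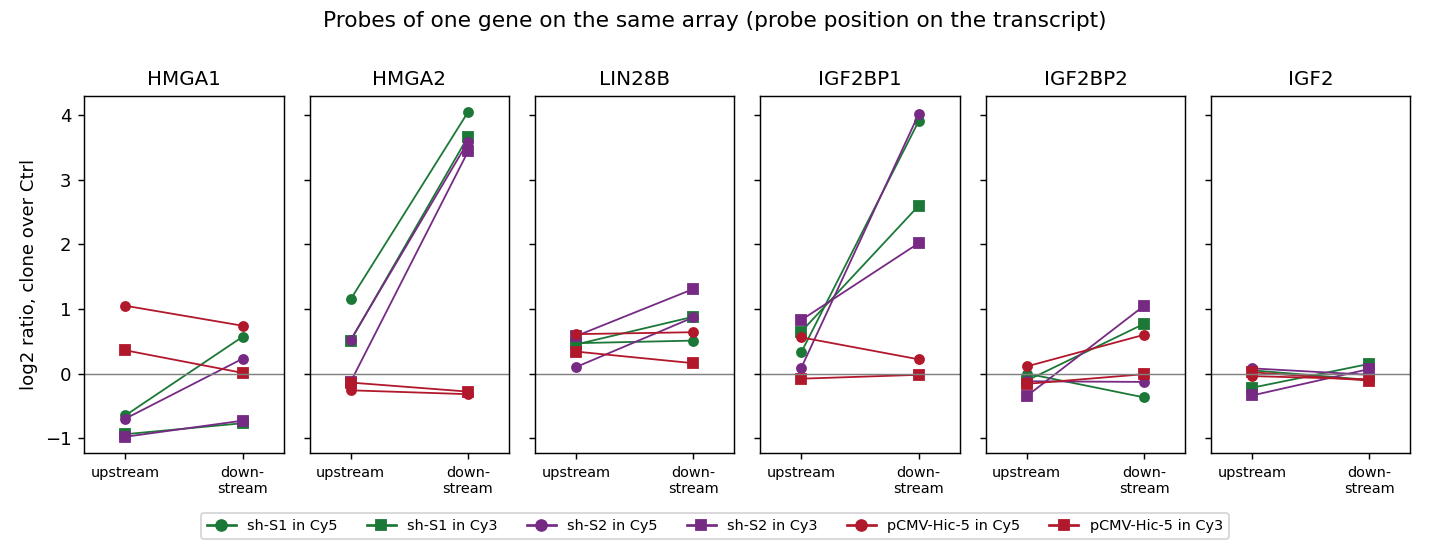
Log2 ratio of clone over Ctrl (y axis) at the upstream and downstream probe of the 6 members with a pair of probes, joined by a line for each array. In SKOV3 (green and purple) HMGA2 goes from a mean of 0.51 to 3.69 and IGF2BP1 from 0.48 to 3.14 between probes. In A2780s (red) the change from upstream to downstream on single arrays runs from -0.35 (HMGA1) to 0.50 (IGF2BP2).

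LIN28B was near the detection limit in SKOV3 Ctrl. The downstream probe was well above background in 2 of 4 Ctrl channels, both in Cy3, and in all 4 clone channels. Its ratios were 0.51, 0.88, 0.87 and 1.31, a mean of 0.89 ± 0.28 or 1.86-fold. All 4 arrays were higher in the clone. In Cy3 the signal over background was 79.6 and 72.7 in Ctrl and 799 and 1250 in the clones. In Cy5 it was 5.34 and 5.84 in Ctrl and 13.9 and 24.6 in the clones. These raw signals were thus higher in the clones in both dyes, although they come from different arrays and were not scaled to each other.

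The size of the LIN28B difference could not be fixed. The offset, added before logarithms were taken, pulls dim signals together; without it the downstream ratio was 2.59, and with the processed signals 4.15 (3.64, 3.99, 4.23 and 4.75 on the 4 arrays). The upstream LIN28B probe followed the same course, with ratios of 0.47, 0.45, 0.10 and 0.58, a mean of 0.40 ± 0.09, 1.47 without the offset and 3.18 with the processed signals. It was well above background in 1 of 4 Ctrl channels and in 2 of 4 clone channels and did not enter the fit. The direction was the same for both probes under all 3 treatments of the background.

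LIN28A, the paralogue of embryonic stem cells, could not be told from background (GRCh37 chr1:26755699-26755758). It was well above background in 1 of 4 SKOV3 Ctrl channels, in 1 of 4 clone channels and in 1 of 4 A2780s channels. Its ratios of 0.20, -0.36, 0.35 and -0.37 changed sign with the dye.

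**Figure D3:**
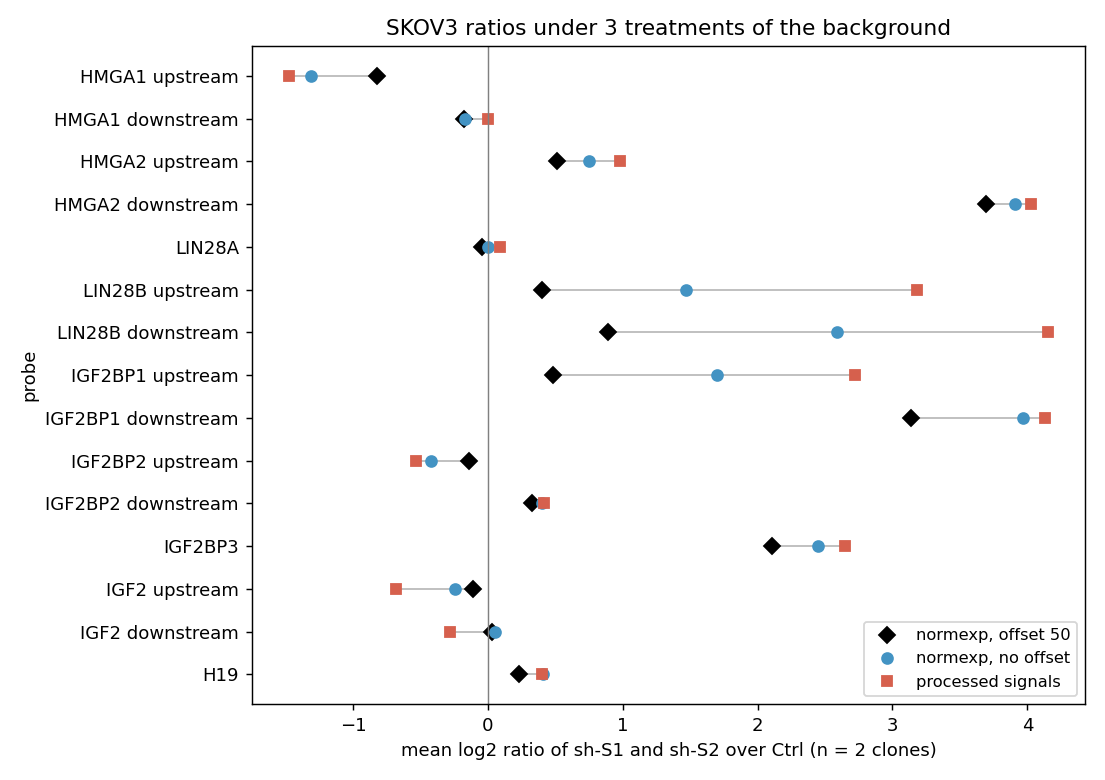
Mean log2 ratio of sh-S1 and sh-S2 over Ctrl (x axis, n = 2 clones) for each member probe (y axis) with an offset of 50, without offset, and with the scanner software's processed signals. Both LIN28B probes and the upstream IGF2BP1 probe move most (LIN28B downstream from 0.89 to 4.15), while the downstream HMGA2 probe stays between 3.69 and 4.03.

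IGF2BP1 was measured by a probe printed 10 times on each array and by a single upstream spot. The replicated downstream probe gave 3.91, 2.60, 4.02 and 2.02, a mean of 3.14 ± 0.17 or 8.81-fold. All 4 arrays were high, but the value depended on the dye: it was 3.97 over the arrays with the clone in Cy5 and 2.31 over those with the clone in Cy3. It depended on the background as well: the mean over all 4 arrays was 3.97 without the offset and 4.13 with the processed signals. The spots of 1 array ranged from 2.96 to 4.91 with sh-S1 in Cy5 (SD 0.57, 10 spots) and from 1.87 to 2.21 with sh-S2 in Cy3 (SD 0.11, 7 spots left after outlier spots were dropped).

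The upstream IGF2BP1 probe gave 0.33, 0.65, 0.09 and 0.83, a mean of 0.48 ± 0.02 or 1.39-fold. Its Cy5 signal was 1.38 and 4.09 over background in Ctrl and 9.95 and 5.85 in the clones, and its Cy3 signal was 93.8 and 108 in Ctrl and 431 and 575 in the clones. Here too the Ctrl and clone signals of a dye come from different arrays and were not scaled. As with LIN28B the low signal governs the value, which was 1.70 without the offset and 2.72 with the processed signals. The gap between the IGF2BP1 probes shrank accordingly from 2.66 to 1.41 with the processed signals.

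IGF2BP3, a cancer-testis protein of the same family, had 1 probe (GRCh37 chr7:23350769-23350828, minus strand). It gave 2.05, 2.58, 1.60 and 2.23, a mean of 2.11 ± 0.28 or 4.33-fold. Without the offset this mean was 2.45, and with the processed signals 2.65. The level was 9.89 to 9.97 in the 4 Ctrl channels and 11.49 to 12.55 in the clone channels, without overlap. IGF2BP2, the family member that persists in adult tissue, had values nearer to 0. Its downstream probe (GRCh37 chr3:185362047-185362106, minus strand) gave -0.37, 0.77, -0.13 and 1.05, and its upstream probe (chr3:185362880-185362939) 0.00, -0.11, -0.12 and -0.35. The first again followed the dye, and the means of 0.33 ± 0.18 and -0.14 ± 0.13 were both under 2-fold.

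IGF2, a target messenger of these proteins, was dim, and its mean ratios lay near 0 with the offset. The upstream probe gave 0.05, -0.22, 0.08 and -0.34, a mean of -0.11 ± 0.03, and the downstream probe (GRCh37 chr11:2150394-2150453) a mean of 0.03 with array values from -0.10 to 0.15. Without the offset these means were -0.24 and 0.05. With the processed signals the upstream probe gave -1.93, -0.30, -0.21 and -0.26, a mean of -0.68, and the downstream probe a mean of -0.28. The downstream probe was well above background in 2 of 4 Ctrl channels and did not enter the SKOV3 fit. H19 was well above background in every channel of both lines. Its ratios were -0.04, 0.22, 0.33 and 0.40, a mean of 0.23 ± 0.20 or 1.17-fold, with sh-S2 above sh-S1 by 0.28.

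The RNAs of sh-S1 and sh-S2 were also set against each other. Over the 15 probes, sh-S2 minus sh-S1 ran from -0.63 (HMGA2 upstream) to 0.40 (LIN28B downstream). The upstream HMGA2 probe was lower in sh-S2 by 0.63 and 0.64 in the respective dye orders, and the downstream HMGA2 probe by 0.46 and 0.23. IGF2BP3 was lower in sh-S2 by 0.45 and 0.35. The downstream LIN28B probe was higher in sh-S2, by 0.36 and 0.44. With 1 RNA per clone these differences have no replicate and were not tested.

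The levels of the members in A2780s lay nearer to both knockdown clones than to SKOV3 Ctrl for the probes with the widest ratios. The downstream HMGA2 level was 13.44 and 13.49 in A2780s Ctrl and 13.16 and 13.17 in pCMV-Hic-5, against means of 14.40 in sh-S1, 13.81 in sh-S2 and 10.41 in SKOV3 Ctrl. The downstream IGF2BP1 level averaged 11.47 in A2780s Ctrl, 11.74 in sh-S1, 11.55 in sh-S2 and 8.51 in SKOV3 Ctrl. The IGF2BP3 level averaged 11.61, 12.26, 11.84 and 9.94 in the same order. The IGF2BP1 average for SKOV3 Ctrl covers a split by dye, with 7.52 and 7.22 in Cy3 but 9.43 and 9.84 in Cy5. All of these lay below the clone channels of that probe, which stood at 11.24 to 12.04. LIN28B was well above background in all 4 A2780s channels by both probes, with a mean downstream level of 8.80 in A2780s Ctrl and 9.19 in pCMV-Hic-5. In SKOV3 its level moved with the dye: the Ctrl channels stood at 6.39 and 6.22 in Cy3 but at 8.06 and 7.91 in Cy5, where the signal was not well above background, and the clone channels at 8.94 and 9.23 in Cy3 but 6.90 and 7.08 in Cy5. For LIN28B only ratios within an array are therefore usable. HMGA1 had the opposite order between the lines, with a mean downstream level of 12.41 in SKOV3 Ctrl and 10.30 in A2780s Ctrl. By that probe the clones stood at 12.18 (sh-S1) and 12.28 (sh-S2), nearer to SKOV3 Ctrl. By the upstream probe the means were 9.59 in SKOV3 Ctrl, 8.89 in sh-S1, 8.66 in sh-S2 and 8.11 in A2780s Ctrl. The cell lines were on separate slides, so that line and slide cannot be told apart in these levels.

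**Figure D4:**
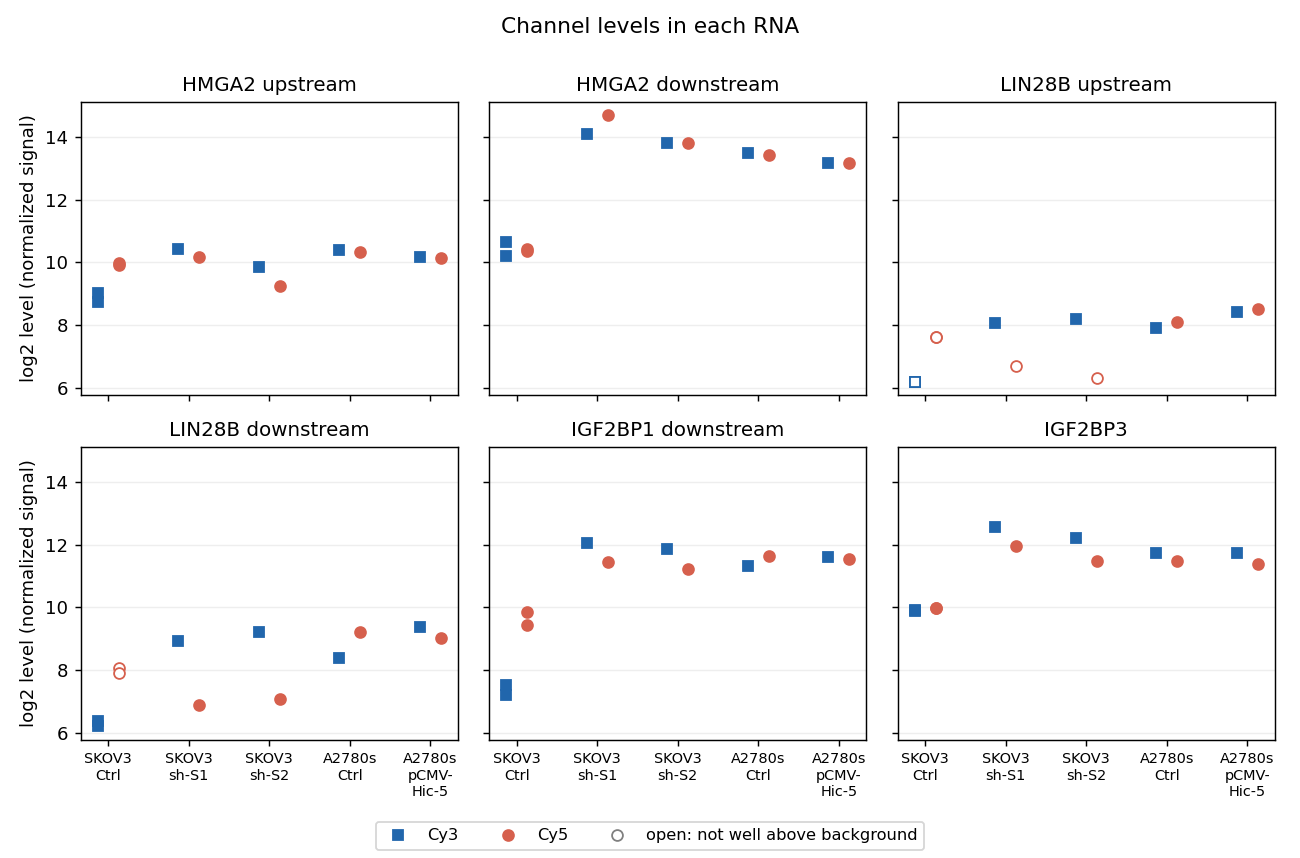
Normalized log2 level (y axis) of 6 member probes in each RNA (x axis), with 1 point per array channel (blue squares, Cy3; orange circles, Cy5; open, not well above background). The downstream HMGA2, downstream IGF2BP1 and IGF2BP3 probes are low in SKOV3 Ctrl alone. The LIN28B points in SKOV3, and the upstream HMGA2 and the IGF2BP1 points in SKOV3 Ctrl, split by dye.

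In A2780s the pCMV-Hic-5 clone differed little from its Ctrl in these genes, and none of the probes that were high in the SKOV3 clones was low there by 1.5-fold. The array-wide counts in A2780s rest on a mean change of at least 1.5-fold with the same sign on both arrays and on no test, since there was 1 clone. By that rule 1 of the 13 member probes measured there was higher, against 3.26% of 30530 probes higher and 1.32% lower over the array. It was the upstream HMGA1 probe, at 1.05 with the clone in Cy5 and 0.36 in Cy3, a mean of 0.71 or 1.63-fold. With Cy3 alone it would not have reached 1.5-fold. The downstream HMGA1 probe stood at 0.74 and 0.01. The downstream HMGA2 probe gave -0.32 and -0.28, and the upstream probe -0.26 and -0.14, so HMGA2 was slightly lower on both arrays by both probes. LIN28B gave 0.64 and 0.16 by its downstream probe and 0.61 and 0.34 by its upstream probe. IGF2BP1 (0.22 and -0.02), IGF2BP3 (-0.37 and 0.24) and H19 (0.10 and -0.08) changed sign between the arrays. The 2 IGF2 probes had means of -0.10 and -0.01, and the 2 IGF2BP2 probes 0.29 and -0.03.

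The genes around these members were read from 6 lists, each gene by its brightest probe, and are shown in the plot of the pathway lists. In SKOV3 the median log2 ratio of all tested probes was 0.00 and in A2780s -0.01. Over the whole array 2.97% of tested probes were called higher and 4.16% lower in SKOV3, and 3.26% and 1.32% in A2780s. These shares count probes, whereas the 6 lists count genes by their brightest probe, and no list was tested against them. The first list was the machinery of let-7 maturation with the partners of LIN28. Of its 16 genes tested in SKOV3, limma called 0, with a median of 0.00, although 6 had an unadjusted p under 0.05 and 1 was called lower with the processed signals. DROSHA, the nuclear nuclease of microRNA maturation, was at 0.89 ± 0.14 in SKOV3, short of 2-fold, and in A2780s it was the only gene of that list called, lower by both arrays (-0.69 and -0.49). Among 23 let-7 target messengers other than the members tested in SKOV3, 2 rose and 3 fell, with a median of 0.07. ARID3B, a DNA-binding protein, rose by 1.95 ± 0.22 (adjusted p = 4.7e-05 by limma) and CDK6, a kinase that drives entry into S phase, fell by 3.23 ± 0.28 (adjusted p = 8.74e-06 by limma). The size of the CDK6 fall depended on the dye, with array values of -2.22, -3.85, -2.27 and -4.58. CDK6 was well above background in 2 of 4 clone channels. No gene of that list was called in A2780s.

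Of 14 tested genes of the IGF axis 3 fell and 0 rose in SKOV3 by limma (7 had an unadjusted p under 0.05 in either direction, and the processed signals also gave 0 higher), with a median of -0.15. IGFBP7, a secreted binding protein, was at -3.92 ± 0.12 (adjusted p = 2.7e-06 by limma), and IRS2, an adaptor of the insulin and IGF1 receptors, fell least of the 3, at -1.31 ± 0.13 (adjusted p = 0.00016 by limma). In A2780s 2 of 14 were higher: STC2, which restrains the protease that frees IGF from its binding proteins, at 0.98 and 1.09, and IGFBP2 at 0.44 and 0.74. Of 16 imprinted genes or regulators of the H19 and IGF2 locus tested in SKOV3, 2 rose and 2 fell, with a median of 0.00. The rise of NDN, a growth-restraining protein of neurons, was 1.81 ± 0.28 (adjusted p = 9.42e-05 by limma) and PHLDA2, which limits placental growth, fell by 1.91 ± 0.11 (adjusted p = 3e-05 by limma). In A2780s 2 of 17 were higher, CDKN1C, a cyclin-dependent kinase inhibitor, at 1.31 and 1.1, and PEG10, a gene derived from a retrotransposon, at 1.00 and 0.57.

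**Figure D5:**
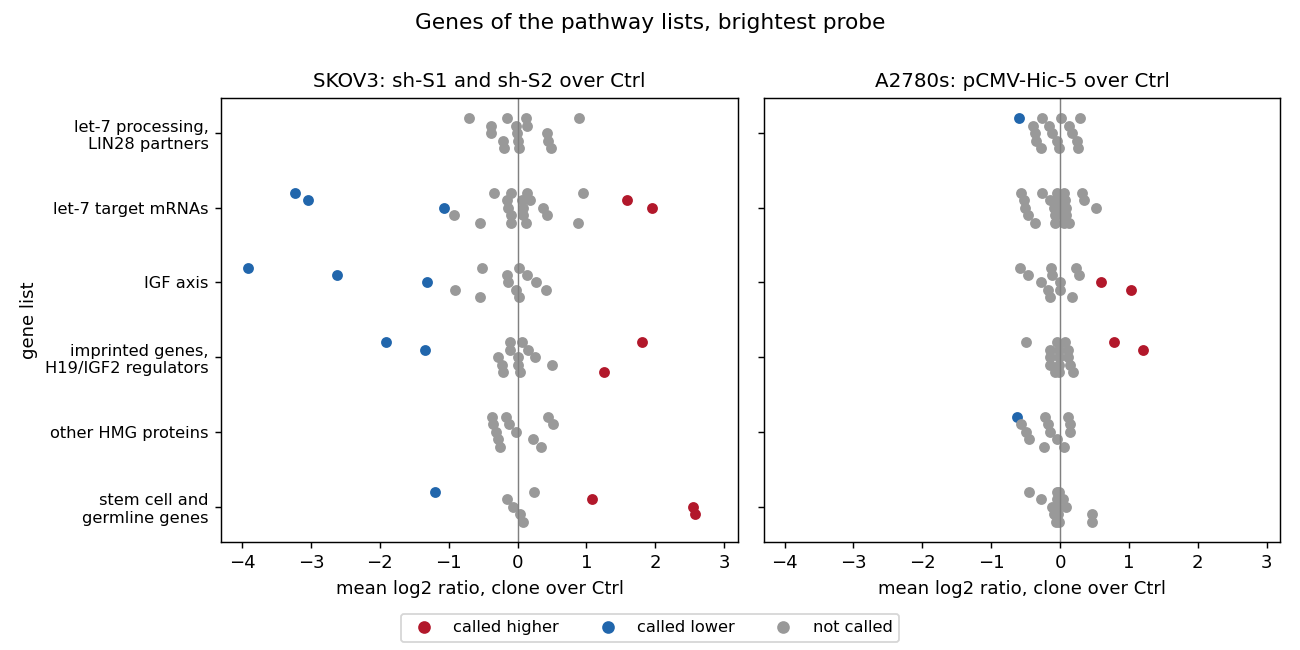
Mean log2 ratio of clone over Ctrl (x axis) of each tested gene in 6 pathway lists (y axis), red where called higher and blue where called lower. In SKOV3 (left) the let-7 processing and other HMG lists hold no called gene, the IGF axis has 3 called lower, and the stem cell and germline list has 3 called higher.

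Of the other HMG proteins, 0 of 12 tested genes were called in SKOV3 by limma (7 had an unadjusted p under 0.05, and the processed signals gave 0 in either direction), with a median of -0.15. In A2780s 1 of 13 was lower, HMGN3, a nucleosome-binding protein, at -0.75 and -0.51. Of 9 embryonic stem cell and germline genes tested in SKOV3, 3 rose and 1 fell, with a median of 0.08 over the list. GPC3, an oncofetal cell-surface proteoglycan, rose by 2.57 ± 0.48 (adjusted p = 7.54e-05 by limma) and POU5F1, a pluripotency factor with several near-identical copies in the genome, fell by 1.2 ± 0.08 (adjusted p = 0.00019 by limma). None of 15 genes of that list was called in A2780s. SALL4 and ZSCAN10 were the other members of the list that rose.

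The genes whose 6 ratios lay nearest to the downstream HMGA2 probe, among 18135 probes tested in both lines, were RDH10, COL3A1, DUSP6, SOCS2 and NR2F1, at Euclidean distances of 0.59 to 0.82. Their mean SKOV3 ratios were 3.49 to 3.87 and their mean A2780s ratios -0.34 to 0.19. RDH10 makes retinal from retinol, and DUSP6 removes phosphate from ERK. For the downstream LIN28B probe the nearest were ZFR2, ZMYND8, PIH1D1, EXOSC1 and FGD5-AS1, at distances of 0.14 to 0.38. Their mean SKOV3 ratios of 0.81 to 1.06 lay in a range that many genes share, and likeness over 6 arrays carries no statement on shared control.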

How the data were processed

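Total RNA of each clone was labelled with Cy3 or Cy5 and hybridised to Agilent Whole Human Genome arrays. The deposited scanner files hold spot intensity values and flags made by the authors with Agilent Feature Extraction (8.5.1.1 in the labels, 10.7.3.1 in the file headers), and a deposited series table holds log10 ratios of Cy5 over Cy3. From 45015 spots per array, control spots, outlier spots and spots with local background above 1000 were left out. Mean intensity was corrected by normexp against the local background (offset 50) and normalized by loess within arrays (limma 3.58.1, R 4.3.3), and spots of 1 probe were averaged. A probe was tested when Ctrl exceeded background clearly on every array of the line, or when 1 clone did so in both dyes. Arrays with exchanged dyes were averaged to 1 value per clone, and 2 clones were tested against 0 by limma with Benjamini-Hochberg adjustment. Both share 1 Ctrl RNA, whose own spread is left out, and nothing says that the RNAs came from repeated cultures. A2780s had no replicate. The precision of arrays is limited by their number. The call rule was tested on simulated data.

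The members and lists were chosen with earlier results of these data known. Named genes were all member probes, the highest and lowest called gene of each list, and the 5 genes nearest to HMGA2 and to LIN28B. Alternatives were the processed signals, the deposited ratios, normexp fitted on all spots, no filter on dim probes, 1 dye order, 1 clone, and, added after seeing the data, normexp without offset. Slide could not be fitted as a block, since each line lay on 1 slide. Probe positions are those of the array annotation (GRCh37), and let-7 sequences come from RefSeq (GRCh38.p14).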

Additional observations from a re-analysis of the deposited data

How the results depend on the processing

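In SKOV3 the count of calls moved most with the treatment of the background, and in A2780s with the dye order. With the processed signals, 4328 SKOV3 probes were called in place of 1779, and 6 member probes in place of 3; without the offset these were 3482 and 6. The deposited ratios, whose calls were counted after seeing the data, gave 4316 probes and 7 member probes. In all 3, the added members were LIN28B downstream, IGF2BP1 upstream and, as lower, HMGA1 upstream, and the 3 original member probes were called again. LIN28B downstream and IGF2BP1 upstream had entered the fit only through the clones, where they were higher, so their added calls support nothing. The deposited ratios also added HMGA2 upstream, at 1.01. With normexp fitted on all spots, without the filter, or with clones in 1 dye only, SKOV3 gave 1751 to 2604 probes and 3 or 4 member probes. Leaving out sh-S1 gave 1995 probes and leaving out sh-S2 1766, by fold alone, since 1 clone leaves no spread to test. In A2780s, the single array carrying the clone in Cy5 gave 3316 probes (54.2% higher) and 5 member probes, and the one carrying it in Cy3 1232 probes (82.6% higher) and 0 member probes, against 1397 (71.2% higher) and 1. The cause of the difference between dye orders was not tested. No called member ratio changed sign under any alternative, and of 222 member ratios recomputed, 70 moved by at least the spread between clones or arrays. The 222 include ratios from 1 SKOV3 clone or from 1 A2780s array, which by construction lie within that spread of the mean. Such ratios could not be counted as moved, so the share of 70 in 222 does not measure robustness.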

Other observations

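A further probe lies at the HMGA2 locus (GRCh37 chr12:66222816-66222875) and is listed under a transcript cluster name, THC2560068, not under the gene. Its log2 ratios in SKOV3 were 0.71, 0.97, 0.45 and 1.01, a mean of 0.79 ± 0.08 (SD, n = 2 clones), and in A2780s 0.01 and 0.40. Its values lay below those of the downstream HMGA2 probe on all 4 SKOV3 arrays; against the upstream probe they were lower on both arrays with the clone in Cy5 and higher on both with it in Cy3.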
